A study of Mus musculus with 13 samples.

Results

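The region described here is a 300 kb stretch of mouse chromosome 7, chr7:149600000-149900000 in build mm9, that holds the fast troponin genes Tnni2 and Tnnt3 and the imprinted pair H19 and Igf2. Its chromatin was read from ChIP-seq peaks of H3K27ac, the acetylated lysine 27 of histone H3 that marks promoters and enhancers in use. Its members were chosen by position alone: every peak lying wholly inside the stretch, which gave 650 of the 1117291 peaks in the lists of 12 libraries. The first merged peak region inside began 14.4 kb from the left edge, at 149614424, and the nearest one outside on that side ended 19.2 kb away, at 149580779. On the right the last one inside ended at 149886776 and the next one outside began at 149900771, 0.771 kb beyond the edge. No peak of any library crossed an edge.

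Tnni2 was placed by 1 position, 149628200. Tnnt3 was taken at about 149684700 to 149702000, H19 at about 149761400 to 149764100 and Igf2 at 149836673 to 149852721. Each gene was described with 5 kb on each side, which left 5 intervals before, between and after the 4 genes. In the RefSeq gene table of another build, GRCm38.p6, the order along the chromosome is Ctsd, Syt8, Tnni2, Lsp1, Prr33, Tnnt3, Mrpl23, Nctc1, H19, Gm33148, Igf2 and Ins2. The neighbours were therefore known by order only, and no peak was given to them.

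Tnni2 encodes the inhibitory subunit of fast skeletal troponin, and Tnnt3 its tropomyosin-binding subunit. Together with the calcium-binding subunit they make contraction of fast fibres depend on calcium, and both genes are switched on as myoblasts become myotubes. H19 is an untranslated RNA expressed from the maternal chromosome and also the source of the microRNA miR-675. Igf2 encodes an insulin-like growth factor expressed from the paternal chromosome, which myoblasts secrete and respond to as they differentiate. The pair shares enhancers that lie beyond the 3′ end of H19, and an imprinting control region just upstream of H19 decides which gene these enhancers reach.

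The cells were C2C12, a mouse myoblast line that fuses into myotubes when fetal bovine serum is replaced by 2% horse serum. Wild-type cells were taken at -24, 0, 6, 12, 24, 48 and 72 h relative to the change of medium. At 48 h there were also 5 lines edited with CRISPR/Cas9: 1 without expression of MyoD (Myod1 knockout), and 4 with deletions of regions named hotspots, which were H1 alone, H3 alone, H3 in a line already lacking H2 (H23), and H3 in a line already lacking H4 (H34). Where the hotspots lie, and whether a line is a single clone, was not given in the sources used here. The sample labelled as the CRISPR control was not analysed here, and the edited lines were set against wild-type cells of 48 h. The samples carry the cell type label myoblasts at every time, and with 4 placed genes this label could not be checked against a marker list. A peak in these bulk samples does not tell fewer acetylated cells from less acetylation per cell.

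Each condition had 1 library, so no difference between conditions was tested and there is no replicate check. Read depth was unknown. The lists held 55585 peaks (Myod1 knockout) to 137960 peaks (H1 line). Their covered length was 18.3 Mb (Myod1 knockout) to 81.5 Mb (H23 line), with 70.6 Mb in the H1 line. They also came in 2 forms. The 6 libraries at 48 h had a list with MACS2 −log10 p-values, and the other 6 time points a list with a score of unstated unit, so the form of the list and the time of 48 h cannot be told apart. The lowest −log10 p was 4.13 in the wild-type list of 48 h and 4.02 in that of the Myod1 knockout. In the hotspot lines it was 3.01 (H1), 3.01 (H3), 3.03 (H23) and 3.01 (H34), so their lists reach weaker peaks. Intervals on shares are 95% Wilson intervals, which cover counting error only, and neighbouring peaks are not independent.

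MicroRNAs lie inside the genes of the imprinted pair, and their mature sequences are shown because the acetylation of H19 and Igf2 differed so much. Capitals mark the seed, bases 2 to 8. The sequences are from RefSeq (GRCm38.p6). miR-675 comes from H19 and miR-483 from an intron of Igf2, and no seed is shared among the 4 strands.
miR-675-5p: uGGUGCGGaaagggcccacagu
miR-675-3p: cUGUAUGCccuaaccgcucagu
miR-483-5p: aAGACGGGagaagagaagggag
miR-483-3p: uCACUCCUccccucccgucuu

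Of the 4 genes, Igf2 alone has entries in the RefSeq promoter table used here (GRCm38.p6), with 4 start sites. The outermost promoter is printed, from 250 bases before to 50 after the start, because it sits at the right-hand end of the gene, where the single peak over Igf2 in the 12 libraries was found nearby. Capitals mark matches to CANNTG, the E-box that MyoD and other bHLH factors bind, which reads the same on both strands.
Igf2 outermost promoter: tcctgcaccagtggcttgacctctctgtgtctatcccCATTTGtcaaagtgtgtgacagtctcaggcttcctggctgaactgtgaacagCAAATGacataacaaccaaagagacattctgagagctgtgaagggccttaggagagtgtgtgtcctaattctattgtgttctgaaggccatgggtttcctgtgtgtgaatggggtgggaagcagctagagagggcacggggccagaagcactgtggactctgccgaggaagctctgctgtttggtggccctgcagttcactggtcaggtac
It held 2 matches, and the third of the listed starts held 1. The other two held none. Among all promoters listed, 32851 in number, 72.3% held at least 1 match, so a match is common in windows of this length. The form CAGCTG, present in 16.3% of all promoters, was in none of the 4.

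The region was among the more densely acetylated stretches of its length in each library. Peaks covered 10.9 kb of it at -24 h, and more of it than of 92.1% of 8811 tiles of 300 kb along the assembled chromosomes. In the other wild-type libraries the covered length was 20540 bases at 0 h, 20021 bases at 6 h, 27407 bases at 12 h, 19043 bases at 24 h, 38647 bases at 48 h and 28320 bases at 72 h. The 48 h value was the highest, in the list with the widest peaks of the wild-type series (a median width of 420 bp over the whole list). The peaks were not spread evenly. They lay in the troponin part and around H19, while none of the wild-type libraries up to 24 h had a peak from 5 kb beyond H19 to the right edge. In the other libraries the H1 line had the most between H19 and Igf2, and beyond Igf2 the H23 line covered 3424 bases, H1 3354 bases and wild-type cells at 48 h 2624 bases.

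**Figure D1:**
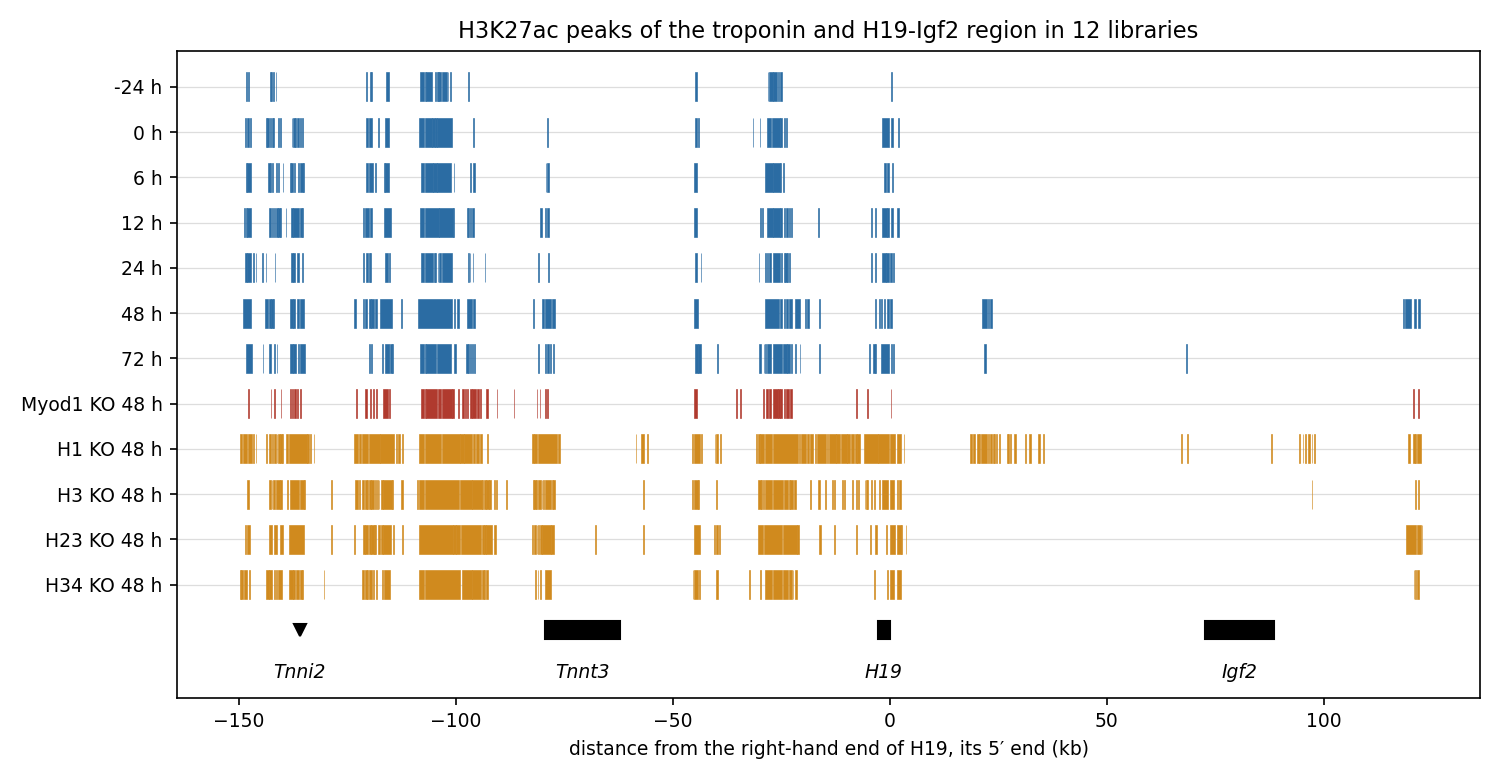
Map of the peaks in each of the 12 libraries (rows; wild-type times in blue, the Myod1 knockout in red, the hotspot lines in orange) against the distance in kb from the 5′ end of H19, with Tnnt3, H19 and Igf2 as black bars and Tnni2 as a triangle at its position. The blocks between Tnni2 and Tnnt3 and between Tnnt3 and H19 appear in every row, the space from 5 kb beyond H19 to the right edge holds no peak in the rows from -24 to 24 h, and the H1 row has 104 peaks against 28 to 83 in the others.

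As a share of all bases a list covered, which allows for the length of the lists, the region took 0.0407%, 0.0588%, 0.0572%, 0.0663%, 0.0776%, 0.0851% and 0.114% in the order of the 7 times. The share was thus higher at each later time than at -24 h, with 6 h slightly under 0 h. With the 55585 strongest peaks of each list, the values ran from 0.0361% at -24 h to 0.114% at 72 h, again with 6 h (0.0538%) below 0 h (0.0572%).

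Acetylation in the region was mostly added to, rather than replaced, after -24 h. At 72 h, 38 of the 53 peaks had no peak at -24 h (71.7%, 58.4 to 82.0), against 37.4% of all 72 h peaks. In the other direction, 3 of the 28 peaks at -24 h had no peak at 72 h (10.7%, 3.71 to 27.2), against 42.7% of all -24 h peaks. At 24 h the counts were 30 of 48 peaks without a -24 h peak, against 35.4% of all peaks, and 6 of 28 peaks of -24 h missing, against 35.6%. At 48 h they were 35 of 49, against 48.9%, and 1 of 28, against 33.5%. The counts of peaks without one at -24 h were 20 of 36 in the 6 h library, against 36.3%, and 29 of 46 in the 12 h library, against 46.7%. Of the -24 h peaks, 3 had none in the 6 h library, against 21.2%, and none of the 28 was missing in the 12 h library, against 17.3%. Already at 0 h, before the change of medium, 22 of 39 peaks had no counterpart at -24 h, against 36.0%, and 2 of the 28 peaks of -24 h were missing, against 18.1%. The 28 peaks of -24 h were all in 4 places: 6 before Tnni2, 15 between Tnni2 and Tnnt3, 6 between Tnnt3 and H19, and 1 beside H19.

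**Figure D2:**
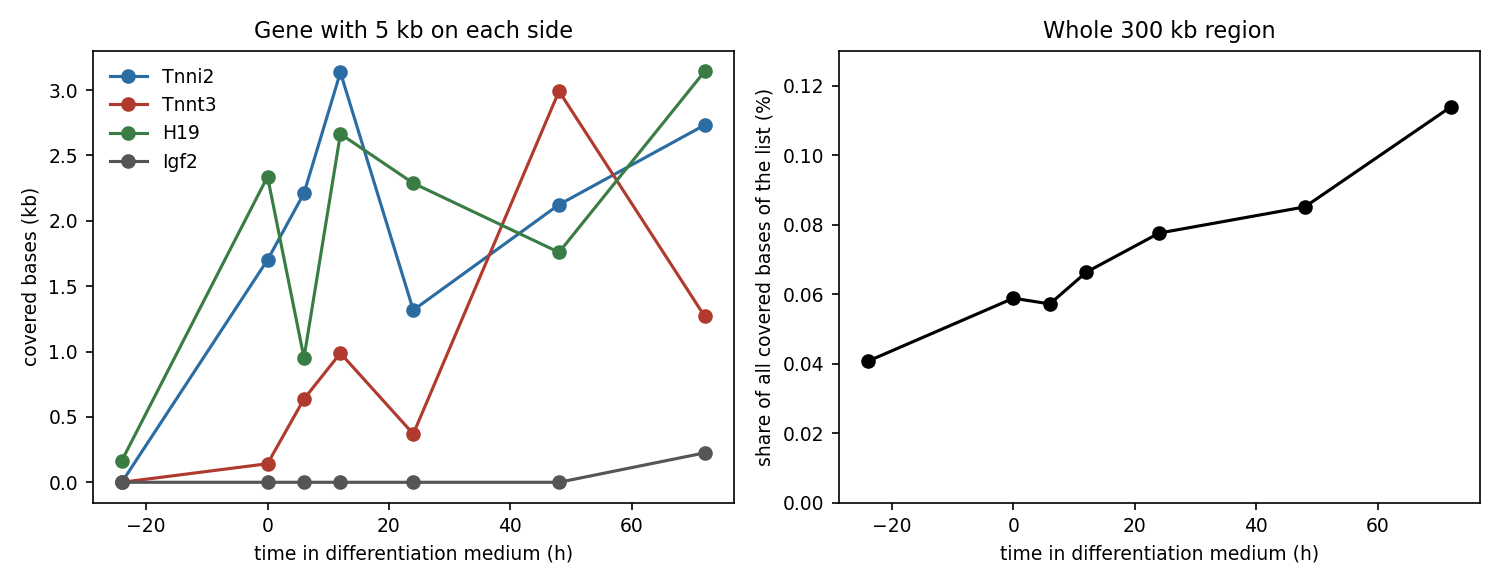
Wild-type time course with 1 library per point: on the left the kb covered by peaks in each gene with 5 kb on each side, on the right the share (%) of all covered bases of a list that lay in the 300 kb region, both against hours in differentiation medium. Tnni2 and Tnnt3 are at 0 and H19 at 0.166 kb at -24 h and all 3 are higher at every later time in the lists as deposited, Igf2 stays at 0 until 0.225 kb at 72 h, and the share goes from 0.0407% to 0.114%.

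Tnni2, the inhibitory subunit, had no peak within 5 kb at -24 h. The nearest one then lay 5399 bases away, at 149622627 to 149622801. From 0 h on peaks stood on both sides of its position. There were 7 or 8 peaks at 0, 6 and 12 h and 4 at each of the 3 later times. The covered length was 1.70 kb at 0 h, 2.21 kb at 6 h, 3.14 kb at 12 h, 1.32 kb at 24 h, 2.12 kb at 48 h and 2.73 kb at 72 h. Every library except -24 h therefore lay above 1.3 kb, with no steady order among them. Among the 55585 strongest peaks of each list the values from 0 h on lay between 0.910 kb at 0 h and 2.73 kb at 72 h. Most of this lay in 1 merged region, chr7:149625635-149629823, which spans the given position. Here the widest single wild-type peak was 1415 bp at 12 h, at 149626703 to 149628117, and it stood at the 76.5th percentile of score in its list. At 72 h a peak of 1183 bp began 7 bases to the right of the given position.

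Tnnt3, the tropomyosin-binding subunit, had no peak within 5 kb at -24 h either, and its nearest one then lay 17.2 kb away. From 0 h on it had less covered length than Tnni2 at every time but 48 h. Peaks near it covered 0.142 kb at 0 h, 0.637 kb at 6 h, 0.988 kb at 12 h, 0.370 kb at 24 h, 2.99 kb at 48 h and 1.27 kb at 72 h. The 2 latest libraries were thus the highest, and 48 h stood above all others. The small early values rested on weak peaks: among the 55585 strongest of each list Tnnt3 had none at 0 and 6 h, as at -24 h, 0.217 kb at 12 h and 2.80 kb at 48 h. The peaks clustered at the left end of the gene, its 5′ end, in the merged region chr7:149682969-149687342. At 48 h the main peak spanned 149684678 to 149686078 with a fold enrichment of 17.7 at its summit, as the authors' list gives it, and stood at the 93.3rd percentile of −log10 p in that list. At 0 h the only peak was 142 bp wide and at the 31.3rd percentile of score. The rest of the gene body, beyond 149688124, held 1 peak in the 12 libraries, at 149696155 to 149696469 in the H23 line.

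Between Tnni2 and Tnnt3, where the gene order places Lsp1 and Prr33, lay the interval with the most covered bases in all 12 libraries. Lsp1 encodes an actin-binding protein best known from white blood cells. This interval of 46.5 kb was covered over 6.34 kb at -24 h, 9.40 kb at 0 h, 9.98 kb at 6 h, 11.9 kb at 12 h, 8.54 kb at 24 h, 15.9 kb at 48 h and 10.9 kb at 72 h. It had 15 peaks at -24 h, when neither troponin gene on its sides had one within 5 kb by midpoint or by covered bases. Its core, chr7:149655531-149665049, had a peak in every library, and the widest wild-type one was 7782 bp at 48 h, at the 99.98th percentile of width in that list (99.976). Its neighbour chr7:149665166-149671068 was covered over 140 bases at -24 h, 197 bases at 0 h, 864 bases at 6 h, 1098 bases at 12 h, 486 bases at 24 h, 1713 bases at 48 h and 1325 bases at 72 h. The libraries at -24 and 0 h were the lowest of the 7 there.

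H19 had a single peak of 166 bp within 5 kb at -24 h, at 149764375 to 149764540, just beyond its 5′ end, and none over the gene body. At 0 h a peak of 1703 bp covered most of the gene, from 149762228 to 149763930. Peaks covered 2338 bases within 5 kb at 0 h, 952 bases at 6 h, 2665 bases at 12 h, 2288 bases at 24 h, 1759 bases at 48 h and 3144 bases at 72 h. The step from little to much covered length at this gene thus lay between -24 and 0 h, before the change of medium, and 6 h was the lowest of the later libraries. Over the body alone the bases were 1703, 779, 1638, 1565, 1261 and 1786 in the same order of times. At 72 h the peak over the body, 149762194 to 149763979, stood at the 89.6th percentile of score in its list.

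The interval between Tnnt3 and H19 lies beyond the 3′ end of H19, on the side of the shared enhancers, and holds Mrpl23, which encodes a mitochondrial ribosomal protein, and the untranslated RNA Nctc1 in the gene order. It was covered over 3.28 kb at -24 h, 4.67 kb at 0 h, 4.28 kb at 6 h, 5.87 kb at 12 h, 4.63 kb at 24 h, 8.19 kb at 48 h and 7.22 kb at 72 h. Most of this lay in chr7:149733784-149743479, a region 20.6 to 30.3 kb downstream of the start of H19 that had a peak in all 12 libraries. It was covered over 2674 bases at -24 h, 3698 bases at 0 h, 3707 bases at 6 h, 5000 bases at 12 h, 3970 bases at 24 h, 6327 bases at 48 h and 5687 bases at 72 h. The 2 latest libraries were again the highest. The strongest peak of this interval stood at the 97.5th percentile of score in the 0 h list, the 99.4th in the 24 h list and the 99.8th in the 72 h list, and at the 98.7th of −log10 p in the 48 h list. The second constant site of the interval, chr7:149718963-149720542, ranged from 561 bases at 24 h to 1159 bases at 72 h among the wild-type libraries.

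Igf2 had no peak over its body in any wild-type library. From -24 to 24 h, the nearest peak lay 70.5 to 72.1 kb from the gene, on the side of H19. At 48 h it lay 29.5 kb away on the other side, at 149882260 to 149882521. At 72 h a peak of 225 bp, at 149832352 to 149832576, lay 4.10 kb beyond the 3′ end, with a score at the 2.38th percentile of its list. The peak-free stretch around the middle of the gene was 425 to 430 kb long from -24 to 24 h, 94.7 kb at 48 h and 359 kb at 72 h. Between H19 and Igf2 the first wild-type peaks were at 48 h, 3 in number over 1.80 kb, and the 72 h library had 1 of 452 bp at the same place, chr7:149785033-149786525. A missing peak says that no peak passed the cutoff of the list, not that the histone carried no acetylation.

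Merging the peaks of all 12 libraries gave 101 regions. Of these, 66 had a peak in no wild-type library (65.3%), against 52.1% of all regions, and 54 a peak in 1 library only (53.5%), against 47.0%. A peak in every library was found in 9 of them (8.91%), against 7.69% of all 211369 regions. These 9 were chr7:149615163-149617229 and chr7:149620300-149624447 before Tnni2, chr7:149642512-149646568, chr7:149646680-149649965, chr7:149655531-149665049 and chr7:149665166-149671068 between the troponin genes, the 2 between Tnnt3 and H19 given above, and chr7:149764064-149765357 at the 5′ end of H19. The end of the one before Tnni2 reached within 5 kb of that gene, and Tnnt3 had none of this kind within 5 kb. A merged region can join peaks that do not overlap. At the 5′ end of H19 the -24 h peak, 149764375 to 149764540, did not overlap the 6 h peak, 149764566 to 149764738. Late-gained means absent from the lists of -24 and 0 h and present in those of 24, 48 and 72 h, and early-lost is the reverse. The late-gained class held 1 region (0.549% of all regions were of this class), chr7:149758175-149761311, immediately beyond the 3′ end of H19. It was covered over 374 bases at 12 h, 200 bases at 24 h, 207 bases at 48 h and 816 bases at 72 h. Its full span of 3137 bp was that of 1 peak of the H1 line. No region was early-lost, against 1.69% of all regions. With equal numbers of strongest peaks the late-gained count was 2, and with peaks within 1 kb merged it was 0.

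**Figure D3:**
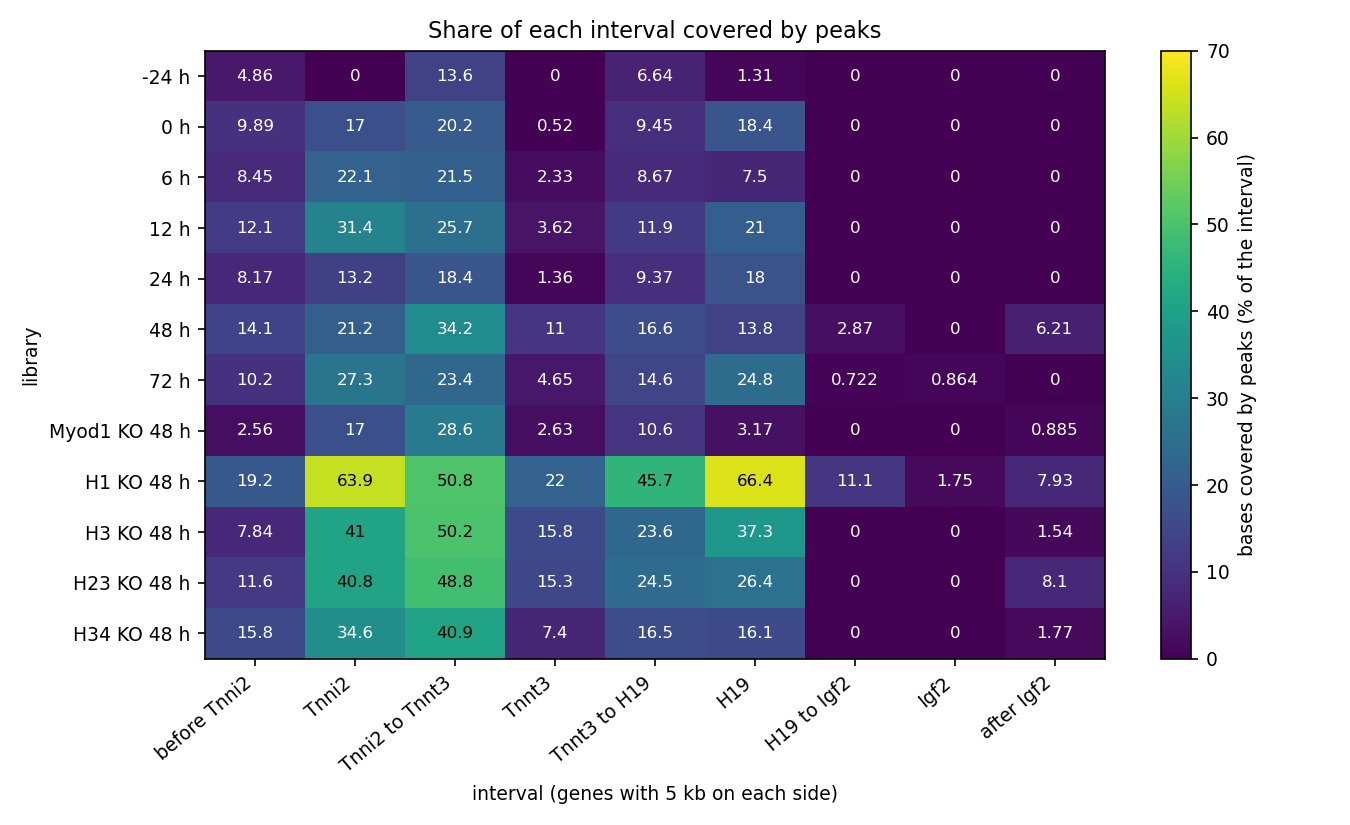
Share of each of the 9 intervals (columns; genes with 5 kb on each side) covered by peaks, in percent, for each of the 12 libraries (rows), with the value printed in each cell and 1 library per row. The columns for Igf2 and for the space from H19 to Igf2 are at 0 in most rows, and the H1 row reaches 63.9% at Tnni2 and 66.4% at H19.

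In the line without MyoD, the factor that drives the muscle program, the peaks at H19 were few and narrow and the 4 at Tnnt3 narrower than the 4 of wild-type cells, while most of those at Tnni2 and between the troponin genes were present. Peaks of the knockout were narrower over the whole list too, with a median width of 234 bp against 420 bp in wild-type cells at 48 h. At H19 with 5 kb on each side the knockout had 403 covered bases against 1759 in wild-type cells at 48 h, which is 22.9%. Its body held no peak. At Tnnt3 the values were 717 against 2992 bases (24.0%), and at Tnni2 they were 1697 against 2124 bases (79.9%). The interval between Tnni2 and Tnnt3 had 13316 against 15885 bases (83.8%), and that between Tnnt3 and H19 had 5222 against 8187 (63.8%). These figures stand beside 40.3% for the whole list, so Tnni2 and the 2 intervals between genes up to H19 lay above the list as a whole, and Tnnt3 and H19 below it. Also below it were the intervals before Tnni2 (18.2%) and after Igf2 (14.3%), and between H19 and Igf2 the knockout had no peak. In lists of the 55585 strongest peaks H19 had 403 against 1010 bases (39.9%), close to the 44.7% of those whole lists, while Tnnt3 was at 25.6% and Tnni2 at 79.9%.

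Of the 49 wild-type peaks at 48 h, 23 had no peak in the Myod1 knockout (46.9%, 33.7 to 60.6), against 57.5% of all 71281 wild-type peaks. The interval included the share of the whole list. By place, 5 of the 6 peaks at H19, 3 of 4 at Tnnt3 and 3 of 3 between H19 and Igf2 had none. At Tnni2 none of 4 was missing, and between the troponin genes 3 of 13 were. The knockout peak at the 5′ end of H19 was 125 bp wide, at 149764343 to 149764467, and overlapped the place of the single peak of -24 h. Another of 226 bp lay beyond the 3′ end, at 149758928 to 149759153. In the downstream region chr7:149733784-149743479 the knockout kept 4240 covered bases against 6327 in wild-type cells. To the right of the troponin core the knockout had more than wild-type cells, where chr7:149665166-149671068 was covered over 2975 bases against 1713. Among the strongest peaks, in equal numbers per list, 15 of 40 were missing (37.5%), against 49.8%. Conversely, 17 of the 54 knockout peaks had no wild-type peak (31.5%, 20.7 to 44.7), against 25.5% of all knockout peaks, and 8 of the 17 lay between the troponin genes. As a share of all covered bases, the region took 0.122% of the knockout list, the highest of the 12 libraries.

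**Figure D4:**
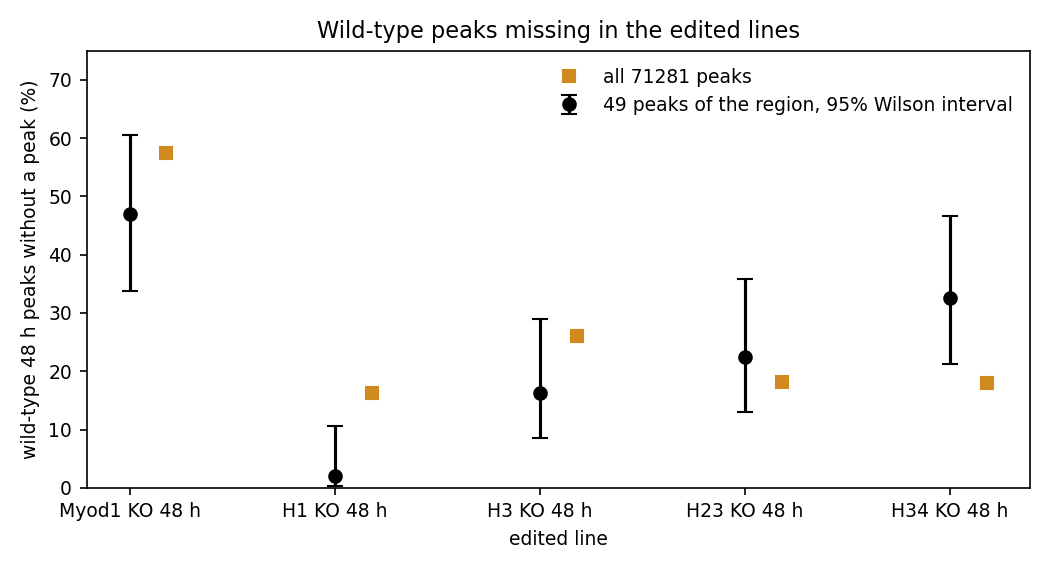
Percentage of wild-type 48 h peaks that overlapped no peak in each edited line (x axis): black points are the 49 peaks of the region with 95% Wilson intervals, orange squares all 71281 wild-type peaks. The H1 point, at 2.04%, lies under its square at 16.2%, and the H34 point, at 32.7%, lies above its square at 18.0%.

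The H1 line had the most peaks and the greatest covered length of the 12 libraries in the region. It held 104 peaks over 82.2 kb, against 49 peaks over 38.6 kb in wild-type cells, which is 213% of the wild-type length beside 155% for the whole list. Only 1 of the 49 peaks of wild-type cells was missing in it (2.04%, 0.361 to 10.7), against 16.2% of all wild-type peaks. Among the equal numbers of strongest peaks it was 5 of 40 (an interval of 5.46 to 26.1), beside 28.3% over all peaks. In the other direction 68 of the 104 H1 peaks had no wild-type peak (65.4%, 55.8 to 73.8), against 55.6% of all H1 peaks. The excess was uneven along the region. At H19 with 5 kb on each side, peaks covered 8433 bases against 1759, or 66.4% of that interval. At Tnni2 they covered 6390 against 2124 bases, with 1 peak of 3990 bp across the position of the gene, which alone was left among the strongest peaks in equal numbers. At Tnnt3 the lengths were 5999 against 2992 bases. Before Tnni2 (136% of the wild-type length) and after Igf2 (128%) the H1 line lay below the 155% of the whole list. With equal numbers of strongest peaks these 2 intervals were at 67.0% and 55.4%, under wild-type cells. After Igf2 the lengths were then 1308 against 2362 bases.

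The largest block of added length in the H1 line lay between Tnnt3 and H19, with 22.6 kb against 8.19 kb. There, 45.7% of the interval was covered in H1 and 16.6% in wild-type cells. The stretch chr7:149752777-149754255, 1479 bases long, was covered throughout in the H1 line, over 633 bases in the H3 line and not at all in the other 10 libraries. The gap between H19 and Igf2 held 20 peaks over 6945 bases in H1, against 3 over 1798 in wild-type cells. Most of these H1 peaks were not among the strongest. With equal numbers of strongest peaks the gap held 3 peaks over 2177 bases in H1, against 2 over 1513. That was 144% of the wild-type length, beside 122% for the whole equal lists. The H1 list was also the only one with a peak over the body of Igf2, at 149851939 to 149852161, which is 223 bp wide and lies within 1 kb of the right-hand, 5′ end of the gene. No library had a peak in the promoter window printed above.

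Of the 83 merged regions with an H1 peak, 38 had a peak in no other library (45.8%), against 26.7% of all regions with an H1 peak. In the other edited lines such regions numbered 5 of 34 in H23, against 22.5%, 2 of 23 in H34, against 20.0%, 2 of 38 in H3, against 11.3%, and 3 of 22 in the Myod1 knockout, against 6.37%. By place, 17 of the 38 lay between H19 and Igf2, 7 between Tnnt3 and H19, and 5 beyond Igf2. The other 9 were 3 at Tnni2, 2 between the troponin genes, 2 at Tnnt3, 1 at H19 and the peak over Igf2. They were 130 to 841 bases wide. With a −log10 p of at least 4 in all 48 h lists the count was 35 (44.3%), against 24.9% of all regions with an H1 peak. With a q under 0.001 it was 27 of 66 (40.9%), against 22.5%. The count was lower in the 2 settings that leave fewer or wider peaks. With equal numbers of strongest peaks the count was 4 of 24 (16.7%), against 11.8%, and with peaks within 1 kb merged it was 6 of 20 (30.0%), against 14.8%. In the equal lists the region still covered 58.2 kb in H1 and 36.2 kb in wild-type cells, and H19 with its 5 kb on each side 7.68 kb and 1.01 kb. For the region this was 161% of the wild-type length, beside 122% for the whole equal lists.

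The 300 kb to the left had 9.04 kb covered in H1, 8.46 kb in H3, 8.13 kb in H23 and 11.7 kb in H34, against 5.24 kb in wild-type cells. The 300 kb to the right had 3.53, 3.49, 7.49 and 3.30 kb in the same order of lines, against 1.01 kb. In neither stretch was the H1 value the highest of the lines. On the whole of chromosome 7 the H1 line covered 1.63 times and the H23 line 2.18 times the wild-type length. Whether any of these values bears on the peaks around H19 was not tested.

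The 3 lines without H3 shared a lack of peaks between H19 and Igf2. None of the 3 wild-type peaks there, at 149785414 to 149787551, had a peak in H3, H23, H34 or the Myod1 knockout, whereas all 3 had one in H1. Across the whole stretch, 5 of 25 regions with a wild-type peak had an H1 peak but no H3, H23 or H34 peak, against 5.14% of all such regions. Beside the 3 between H19 and Igf2 these were chr7:149743637-149744719 and chr7:149745074-149745474, on the H19 side of the constant downstream region. With equal numbers of strongest peaks the count was 4 of 21, against 5.06%, with a q under 0.001 it was 5, against 5.01%, and with peaks within 1 kb merged it was 1 of 10, against 3.79%. As deposited, none of the 5 regions had a peak in the Myod1 knockout or in wild-type cells from -24 to 24 h. At 72 h only chr7:149785033-149786525 had one. The absence was therefore not particular to the lines without H3. Since H1, H3, H23 and H34 have 1 library each, the deletion and other differences between lines cannot be told apart.

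At the genes the 3 lines without H3 were not alike. The H34 line lacked 16 of the 49 wild-type peaks (32.7%, 21.2 to 46.6), against 18.0% of all peaks, and the missing ones included 3 of 4 at Tnnt3 and 3 of 6 at H19. The H23 line lacked 11 (22.4%, 13.0 to 35.9), against 18.2%, with 1 of 4 at Tnnt3 and 3 of 6 at H19. The H3 line lacked 8 (16.3%, 8.51 to 29.0), against 26.0%, with none at either gene. In the other direction 43 of 83 H3 peaks had no wild-type peak, against 48.6%, 27 of 57 H23 peaks, against 59.4%, and 19 of 53 H34 peaks, against 56.2%. For the missing peaks, the interval of H34 lay above the share of the whole list, and those of H23 and H3 included it. In lists of equal numbers of strongest peaks the shares were 35.0% in H34, 27.5% in H23 and 30.0% in H3, beside 27.8%, 25.1% and 31.1% over all peaks. The interval of H34 was then 22.1 to 50.5 and included the share of the whole list.

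Over the body of H19 the covered bases were 1599 in the H3 line, 301 in H23 and 200 in H34, against 1261 in wild-type cells, 2529 in H1 and 0 in the Myod1 knockout. Both double deletions thus had little over the gene itself, although upstream of it, in chr7:149764064-149765357, they had 1096 (H23) and 856 bases (H34) against 291 in wild-type cells. The region further upstream, chr7:149765751-149766621, was covered in the 4 hotspot lines over 707 to 796 bases and in none of the other 48 h libraries. It had also been covered at 0 h over 231 and at 12 h over 268 bases. At Tnnt3 with 5 kb on each side the H34 line had 2021 bases, against 4327 in H3 and 4174 in H23, and 1.35 kb against 3.02 and 2.33 kb among the strongest peaks in equal numbers. At Tnni2 the 3 lines had 4098 (H3), 4085 (H23) and 3457 bases (H34), all above the 2124 of wild-type cells in lists that covered 129% to 179% of the wild-type length.

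The troponin block between the 2 genes reached further to the right in the 5 edited lines than in wild-type cells at 48 h. Its last peak ended at 149668563 in those wild-type cells, at 149670951 at 24 h, and at 149677599 in the Myod1 knockout. In the hotspot lines the end was 149675907 (H3), 149673474 (H23), 149671620 (H34) and 149671460 (H1). The region chr7:149665166-149671068 was covered over 5507 bases (H3), 5408 bases (H23), 5000 bases (H34) and 4543 bases (H1). Wild-type cells at 48 h had 1713 bases there and the knockout 2975. Next to this region, chr7:149671069-149672496 was covered over 938, 1390, 456 and 156 bases in the same order of hotspot lines. The knockout had 378 bases there and the 7 wild-type libraries no peak. Beyond Igf2, on the other side, chr7:149882710-149885351 was covered in wild-type cells at 48 h over 1849 bases and in H23 over 2385, but over 1104 in H1, 338 in H34, 135 in H3 and 125 in the knockout. No other wild-type time had a peak in that place. All 6 libraries at 48 h had one, so the time and the form of the list cannot be told apart there.

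Peaks joined over gaps of up to 12500 bases give the domains from which super-enhancers are picked by rank within a list. Domains were ranked by the sum of width times signal of their peaks, and those past the point where the ranked curve reaches a slope of 1 were called large. Tnni2 lay in a large domain in wild-type cells at 48 h, of 53.4 kb and rank 108 of 21096, where 3.61% of domains were large. It also did in the 4 hotspot lines, where the large share was 5.18% (H1), 4.74% (H3), 5.11% (H23) and 5.12% (H34). The large share at the other times was 4.38% at -24 h, where no gene had a domain, 4.10% in the 0 h list, 4.59% in the 6 h list and 4.18% in the 12 h list. At these times and at 24 and 72 h the Tnni2 domain, 13.3 to 13.7 kb long where there was one, was not large, nor was it in the Myod1 knockout. Tnnt3 was in a large domain at 24 h (42.8 kb, rank 260 of 17337, 4.58% large), in the knockout (44.2 kb, rank 74 of 16489, 4.14% large) and in the 4 hotspot lines.

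H19 was in a large domain at 72 h, of 45.9 kb and rank 194 of 16361 (4.0% large), and in H1 (61.9 kb, rank 249), H3 (59.4 kb, rank 702) and H23. In H23 a single domain of 152 kb and 54 peaks, rank 122, ran from before Tnni2 to beyond the 5′ end of H19 and thus held 3 of the 4 genes. In the knockout the domain over H19 was 8.14 kb long and ranked 11057 of 16489. Igf2 was in no large domain, and in H1 alone in a domain at all, of 10.1 kb and rank 12703 of 22034. Which gene a large domain reached turned on short gaps. With joining within 5 kb, large domains over Tnni2 were found in 1 library instead of 5, over Tnnt3 in none instead of 6, and over H19 in 3 instead of 4.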

How the data were processed

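H3K27ac ChIP-seq peak lists of 12 libraries were used, 1 per condition. Peaks were called with MACS2 2.1.0 on mm9, per the submitters' processing notes. Not given in the sources used here were the aligner, read filters, control library, cutoffs and read depth. In the 6 time course lists the authors deposited a score per peak with no stated unit. The 6 deposited lists at 48 h give a score, the fold enrichment at the summit (a ratio), and −log10 p and q values in the MACS2 order. These were the authors' values and were used only to rank or filter peaks within a list.

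Peaks wholly inside the region were counted by midpoint per interval, and covered bases were clipped to it. Peaks shared a place when they overlapped by 1 base. Named regions were the widest of each interval, those over a gene or nearest to Tnni2, those in all 12 libraries and those late-gained. Regions shown for the H1 line or the lines without H3, and the neighbours of the troponin block and of H19, were chosen after their values were seen. The members, lists and comparisons were chosen with earlier results of these data known. Fast muscle, IGF and imprinted genes elsewhere were not placed, as no annotation of mm9 was used. Other settings tried were 50% overlap of the shorter of a pair, a q under 0.001 (score of at least 5), a −log10 p of at least 4, the 55585 strongest peaks, merging within 1 kb, flanks of 2 or 10 kb, and other domain settings. The overlap and merging code was tested on 20000 simulated regions, whose peaks shared a core and lay apart from the next region. With the class rules restated in the test, all 1000 late-gained and 2000 early-lost ones were recovered. Fragmented or chained peaks were not simulated. Python 3.11.15, numpy 2.4.6, scipy 1.17.1 and matplotlib 3.10.9 were used.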

Additional observations from a re-analysis of the deposited data

How the results depend on the processing

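No paired analysis was possible because each condition had 1 library. Of 46 alternatives to 9 results, 37 stayed the same and 9 moved. With equal numbers of strongest peaks, the fraction of wild-type peaks without a peak was 0.125 in H1 and 0.30 in H3, late-gained regions numbered 2 and regions in H1 alone 4. With peaks within 1 kb merged, that fraction was 0 in H1 and 0.118 in H23, late-gained regions numbered 0, regions in H1 alone 6, and the pattern of H1 without the lines lacking H3 was found in 1 region. These settings leave fewer or wider peaks by construction. The 4 other settings left the 5 fractions within the Wilson interval of the lists as deposited, though the H1 fraction was 0.0612 with 50% overlap and 0.0408 with a q under 0.001, beside 0.0204. With a −log10 p of at least 4, peaks covered 81.6 kb of the region in H1, 50.2 kb in H3, 52.1 kb in H23 and 39.1 kb in H34. As deposited the lengths were 82.2, 50.6, 52.5 and 39.1 kb in the same order. Of 732 alternatives for single intervals and domains, 102 moved by over 1.5 times or changed the call of a large domain. The alternatives for regions in H1 alone, for the pattern without H3 and for the covered length of the region were chosen after seeing the data. Without read depth, how far weak peaks depend on it was not tested.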
